A study of Homo sapiens with 6 samples.

Results

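Keratin associated proteins are small proteins of the hair shaft, each encoded by a gene named KRTAP with a subfamily number and a member number. The KRTAP genes were examined on 2 deposited gene lists, of high and of low expression, from a transcriptome study of SiHa, an established cell line of human cervical squamous cell carcinoma. Rows were taken whose symbol begins with KRTAP and a digit, which gave 89 genes of the 8967 rows of both lists. All 89 stood on the low list, which held 4436 rows, and 0 on the high list, which held 4531. This placing is what selected the genes, so it is a description and was not tested.

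In hair, keratin filaments of the cortex and cuticle are embedded in a matrix of keratin associated proteins, which are cross-linked to the filaments and to each other through the sulfur of cysteine. The proteins are divided by composition into high sulfur, ultra-high sulfur and high glycine-tyrosine classes. Their genes are short, usually have a single exon and lie in tandem arrays, and they are known for expression late in the differentiation of hair forming cells. Cervical epithelium forms no hair.

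SiHa cells were grown in DMEM with fetal calf serum and left in transwell plates for 10 hours, after which the migrated and the non-migrated cells were scraped and pooled. The study has 3 RNA libraries of each fraction, all from this 1 line and with no drug or gene change named, and the design text calls them paired sets. Whether each set was a separate culture is not said. The series title links migratory cells to little SUV39H1, an enzyme that methylates histone H3. The expression table names its 26006 loci by assembly IDs, which the files do not pair with genes, and the lists hold no values. No KRTAP gene could therefore be given a level in a library or a change between the fractions, and no source used here gives the rule behind the lists. In RNA pooled from many cells, fewer cells with a transcript and less transcript per cell cannot be told apart.

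The libraries held 18226280 to 33466924 assigned fragments. Between 34.9% and 37.9% of the loci were at 0 fragments in a library, and 7820 loci (30.1%) were at 0 in all 6, more than the rows of the low list. The labelled cell type was checked on 13 genes of cervical, simple and basal epithelium. The simple epithelial keratins KRT7, KRT8 and KRT18, the basal keratin KRT17 and CDKN2A, which encodes p16, were on the high list. KRT5 and KRT6B were low. The other 6 were on neither list, namely the simple epithelial keratin KRT19 and KRT6A, KRT13, KRT14, TP63 and EPCAM. As a background, 21.2% of RefSeq protein coding genes were high and 18.1% were low.

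The placing of the KRTAP genes was near complete over the family. RefSeq holds 94 protein coding KRTAP genes, of which 89 (94.7%) were on the low list, 0 on the high list and 5 on neither. Of 20052 RefSeq protein coding genes, 18.1% were on the low list and 21.2% on the high list. The rule used list membership, so nothing is read from the difference. All 89 symbols matched RefSeq directly. The lists held none of the 18 KRTAP pseudogenes and not the antisense RNA gene KRTAP5-AS1. They also held none of the 10 genes on chromosome 2 that once carried KRTAP28 names and are now called SCYGR.

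In 21 of 26 subfamilies every RefSeq coding gene was on the low list. These were KRTAP1, 6, 8 to 13, 15 to 17, 19 to 27 and 29, where those numbers exist. The largest complete subfamilies were KRTAP10 with 12 genes, KRTAP9 with 8 and KRTAP19 with 8. Subfamilies 2, 3, 4, 5 and 7 each lacked 1 gene. KRTAP4 had 11 of 12 genes listed, KRTAP5 had 10 of 11, KRTAP2 had 3 of 4 and KRTAP3 had 2 of 3. The single gene of subfamily 7, KRTAP7-1, was on neither list. By class, 37 of 39 high sulfur, 30 of 32 ultra-high sulfur and 21 of 22 high glycine-tyrosine genes were on the low list, and KRTAP29-1 was given no class.

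**Figure D1:**
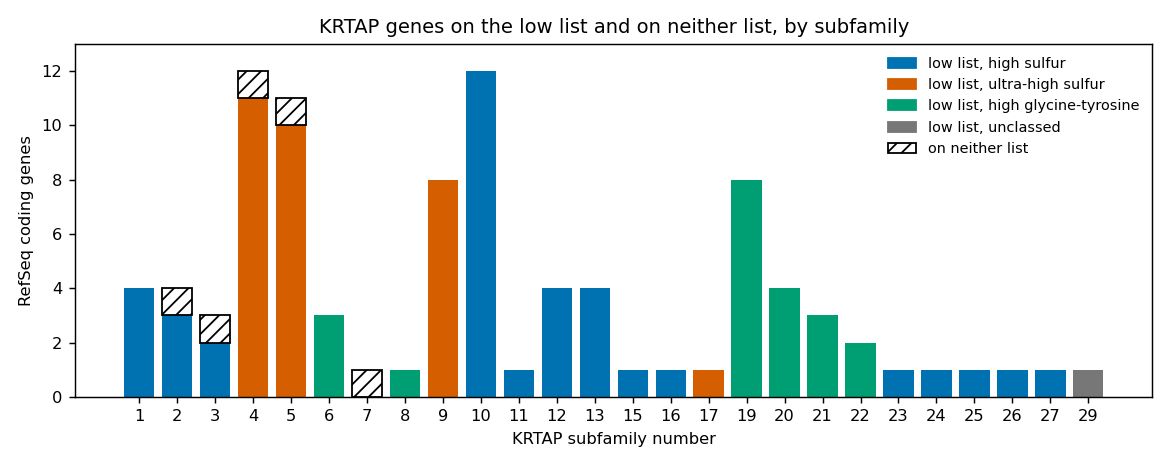
RefSeq coding KRTAP genes (vertical axis) in each numbered subfamily (horizontal axis); solid bars are genes on the low list, coloured by protein class, and hatched bars are genes on neither list. The 5 hatched genes fall in subfamilies 2, 3, 4, 5 and 7, with 1 in each.

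The 5 genes on neither list were scattered. KRTAP5-9 lies between KRTAP5-8 and KRTAP5-10 on chromosome 11. On chromosome 17, KRTAP3-2 lies between KRTAP3-3 and KRTAP3-1, KRTAP2-3 between KRTAP2-2 and KRTAP2-4, and KRTAP4-16 between KRTAP4-8 and KRTAP4-9. KRTAP7-1 lies between KRTAP8-1 and KRTAP11-1 on chromosome 21. Each was a single gene with a listed gene on both sides in the RefSeq order. Standing on neither list does not show that a gene was expressed, since each list may omit genes for reasons the files do not give.

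KRTAP2-3 was almost the same in coding sequence as a listed neighbour. Its coding sequence was 99.7% identical to that of KRTAP2-4, with 1 of 384 bases different, and 99.5% identical to that of KRTAP2-1. The listed pair KRTAP2-1 and KRTAP2-4 also differed at 1 base of 384 and was the most alike pair of listed genes. The sequences below show both differences as GENCODE transcripts give them (build GRCh38, minus strand of chromosome 17, within the coding exon), 5′ to 3′, with the differing base in capitals. They are shown because a coding fragment that misses this base fits either gene of a pair.
KRTAP2-3, coding bases 288 to 377, chr17:41059674-41059763: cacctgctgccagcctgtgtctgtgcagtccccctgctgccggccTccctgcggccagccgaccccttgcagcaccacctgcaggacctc
KRTAP2-4, coding bases 288 to 377, chr17:41065469-41065558: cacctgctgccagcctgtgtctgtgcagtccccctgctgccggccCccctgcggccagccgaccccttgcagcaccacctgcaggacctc
KRTAP2-1, coding bases 1 to 90, chr17:41047178-41047267: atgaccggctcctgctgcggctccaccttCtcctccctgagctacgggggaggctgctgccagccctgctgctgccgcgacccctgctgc
KRTAP2-4, coding bases 1 to 90, chr17:41065756-41065845: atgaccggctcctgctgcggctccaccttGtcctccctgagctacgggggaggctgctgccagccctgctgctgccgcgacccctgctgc

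KRTAP3-2 was 98.0% identical to the listed KRTAP3-3, with 6 of 294 bases different. The remaining unlisted genes were less like their listed relatives. KRTAP5-9 reached 80.8% identity, with KRTAP5-11, and KRTAP4-16 reached 66.1%, with KRTAP4-6. KRTAP7-1 has no relative in its subfamily.

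The listed genes lay in 5 clusters on 3 chromosomes, where a gap over 1 Mb between starts ended a cluster. Positions in this and the next paragraphs are those of the deposited lists, in hg19. The first cluster on chromosome 11 ran from KRTAP5-1 to KRTAP5-6 (chr11:1605572-1718985) and held 6 genes in 113 kb. The second ran from KRTAP5-7 to KRTAP5-11 (chr11:71238313-71293921) and held 4 genes in 55.6 kb. The chromosome 17 cluster ran from KRTAP3-3 to KRTAP17-1 (chr17:39149686-39471947) and held 31 genes in 322 kb. The first cluster on chromosome 21 ran from KRTAP24-1 to KRTAP19-8 (chr21:31653629-32410795) and held 32 genes in 757 kb. The second ran from KRTAP10-1 to KRTAP10-12 (chr21:45958864-46117959) and held 16 genes in 159 kb.

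Density differed between the clusters. It was 4.23 listed genes per 100 kb in the first chromosome 21 cluster and 10.1 in the second, 9.62 on chromosome 17, and 5.29 and 7.19 in the chromosome 11 clusters. The median distance between starts was 8.73 kb on chromosome 17 and 11.4 to 14.2 kb in the other 4. The widest gap inside a cluster, 158 kb, parted KRTAP11-1 from KRTAP19-8, the outlying last gene of the first chromosome 21 cluster.

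KRTAP genes made up a large part of the low list on 1 chromosome. They were 48 of the 97 low-list rows on chromosome 21 (49.5%), against 31 of 198 on chromosome 17 (15.7%) and 10 of 389 on chromosome 11 (2.57%). Over all chromosomes they were 2.01% of the list. The share of KRTAP genes among all coding genes of each chromosome was not counted, so nothing is read from these differences. Chromosome 21 also carried 61 rows of the high list.

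**Figure D2:**
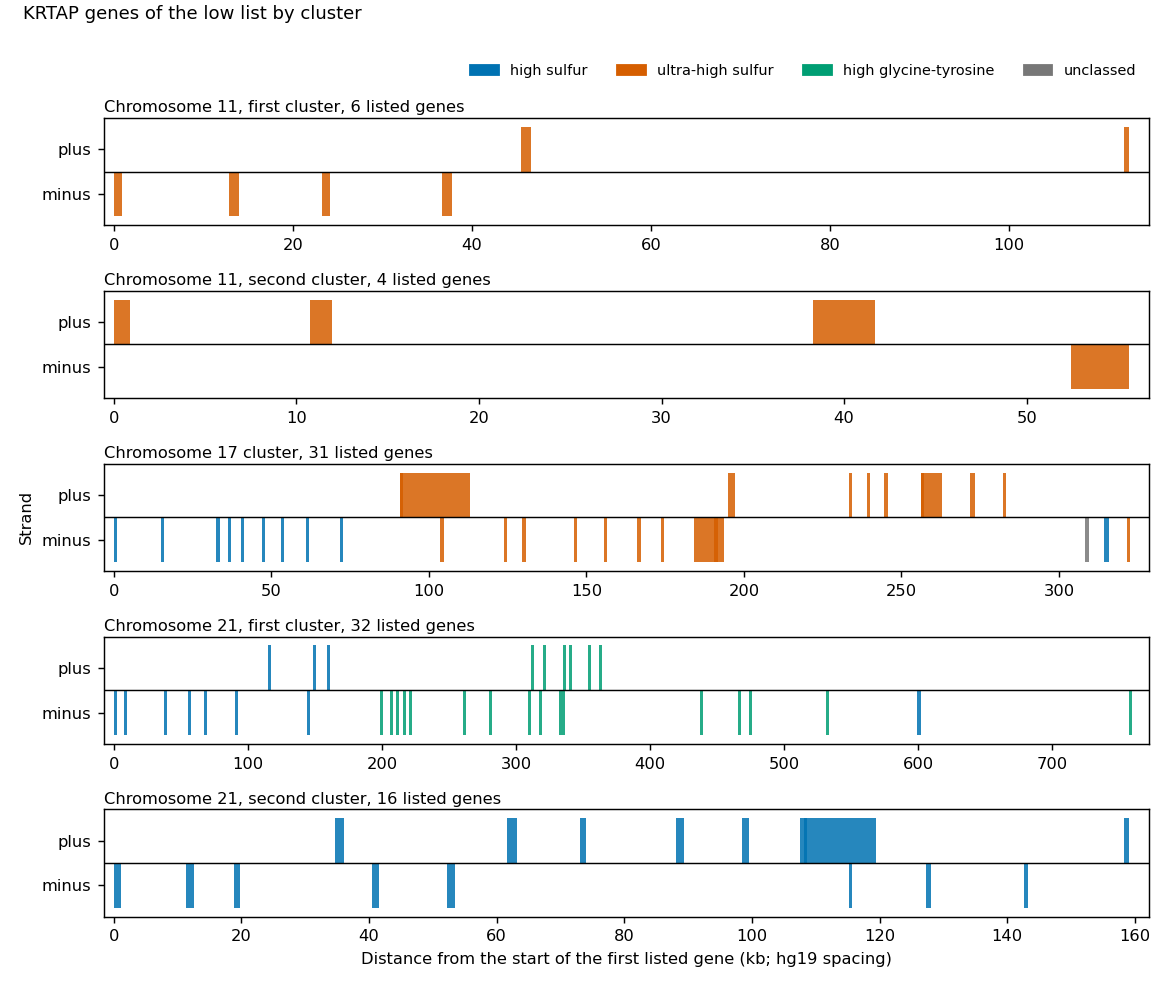
Listed KRTAP genes as boxes along each of the 5 clusters, by distance from the start of the first listed gene (horizontal axis, kb) and by strand (above the line plus, below it minus), coloured by protein class. Boxes have their listed length with a minimum drawn width. Classes form blocks, and high glycine-tyrosine genes appear in the first chromosome 21 cluster alone.

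Clusters of different chromosomes differed in their mix of classes, and so did the first and second on chromosome 21. Both chromosome 11 clusters held the ultra-high sulfur subfamily KRTAP5 and nothing else. The chromosome 17 cluster held 20 ultra-high sulfur genes, 10 high sulfur genes and KRTAP29-1. The first chromosome 21 cluster held all 21 listed high glycine-tyrosine genes with 11 high sulfur genes, and the second held 16 high sulfur genes of subfamilies 10 and 12.

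Subfamilies also kept to blocks and often to a strand. On chromosome 17 the order of the first 9 listed genes was KRTAP3-3, KRTAP3-1, KRTAP1-5, KRTAP1-4, KRTAP1-3, KRTAP1-1, KRTAP2-1, KRTAP2-2 and KRTAP2-4, all on the minus strand. The 11 KRTAP4 genes followed, namely KRTAP4-1 to KRTAP4-9 and KRTAP4-11 and KRTAP4-12, with 9 on the minus strand. The 8 KRTAP9 genes, KRTAP9-1 to KRTAP9-4 and KRTAP9-6 to KRTAP9-9, were all on the plus strand. KRTAP29-1, KRTAP16-1 and KRTAP17-1 closed the cluster on the minus strand. Of 30 neighbouring pairs there, 26 lay on the same strand.

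The first chromosome 21 cluster opened with the high sulfur genes KRTAP24-1, KRTAP25-1, KRTAP26-1, KRTAP27-1, KRTAP23-1, KRTAP13-1 to KRTAP13-4 and KRTAP15-1. KRTAP19-1 to KRTAP19-7 followed, then KRTAP22-2, KRTAP6-3, KRTAP6-2, KRTAP22-1 and KRTAP6-1, and then the 4 KRTAP20 genes, KRTAP20-1 to KRTAP20-4. KRTAP21-3, KRTAP21-2, KRTAP21-1, KRTAP8-1, KRTAP11-1 and the distant KRTAP19-8 closed the cluster. All 8 KRTAP19 genes were on the minus strand and all 4 KRTAP20 genes on the plus strand. Same-strand neighbours were 21 of 31. In the second cluster, KRTAP10-1 to KRTAP10-11 were followed by KRTAP12-1 to KRTAP12-4 and then KRTAP10-12, with 8 genes on each strand. The other listed genes were KRTAP5-1 to KRTAP5-8, KRTAP5-10 and KRTAP5-11 on chromosome 11.

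The surroundings differed from cluster to cluster. Within the spans the lists held 2 other genes, both low: FAM99B on chromosome 11 (chr11:1704499-1706859) and TSPEAR on chromosome 21 (chr21:45917775-46131495). All 16 listed genes of the second chromosome 21 cluster lie inside the span of TSPEAR, 8 of them on its strand. In RefSeq, no coding gene other than a KRTAP gene lies wholly between the first and last listed gene of any cluster.

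The chromosome 17 cluster sits between hair keratin genes. KRT39 and KRT40 on its left side and KRT33A, KRT33B and KRT31 on its right side were on the low list within 100 kb. The nearest high-list genes were SMARCE1, a chromatin remodelling subunit, 345 kb to the left and KRT17 304 kb to the right. The clusters with a high-list gene closest by were the first on chromosome 11, with CTSD, which encodes the lysosomal protease cathepsin D, at 55 kb (chr11:1773982-1785222), the second on chromosome 21, with the ubiquitin conjugating enzyme gene UBE2G2 at 71.0 kb, and the second on chromosome 11, with the cholesterol synthesis gene DHCR7 at 74.4 kb. The first chromosome 21 cluster lay farthest from such a gene, 1208 kb from CCT8, a chaperonin subunit, on the left and 621 kb from SOD1, superoxide dismutase, on the right.

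Other genes of the hair follicle were looked up, with 18.1% of all RefSeq coding genes on the low list and 21.2% on the high list as the background. Of 17 hair shaft keratins, the filament partners of the KRTAP proteins, 13 were low and 0 high, including KRT31, KRT35, KRT83 and KRT85. KRT32, KRT34, KRT81 and KRT86 were on neither list. Of 10 genes written down for the inner root sheath, the layer that moulds the shaft, 9 keratins were low. These were KRT25 to KRT28 and KRT71 to KRT75. TCHH, which encodes trichohyalin, was on neither. Of 16 genes that regulate or complete hair differentiation, 3 were high, 3 low and 10 on neither, shares near those of all coding genes. The transcription factor CUX1, the corepressor HR and NFKB1 were high. The homeobox gene MSX2, the ligand gene BMP4 and the transglutaminase gene TGM3 were low, while HOXC13, a homeobox gene of hair, and FOXN1 were on neither. These lists were written with earlier results of the data known, so their counts are descriptions.

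The listed KRTAP genes were short. The median length from start to end position was 903 bp (range 199 to 22282), against 11522 bp for the rest of the low list and 33219 bp for the high list. Under 1500 bp lay 78 of 89 KRTAP genes (87.6%), 15.1% of the rest of the low list and 0.662% of the high list. The share was 93.5% for listed olfactory receptor genes and 76.5% for listed late cornified envelope genes. The median was 330 bp for high glycine-tyrosine, 876 bp for high sulfur and 1076 bp for ultra-high sulfur genes. KRTAP22-1 was shortest (chr21:31973414-31973612, 199 bp) and KRTAP4-9 longest (chr17:39240459-39262740, 22282 bp), where RefSeq gives 1100 bp.

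**Figure D3:**
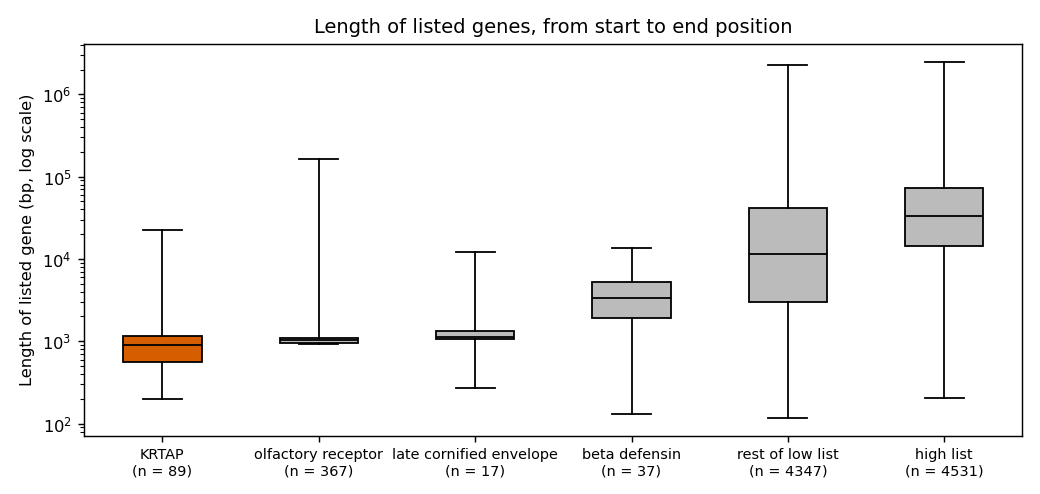
Length of listed genes from start to end position (vertical axis, bp, log scale) for KRTAP genes, 3 comparison families on the low list, the rest of the low list and the high list. Boxes span the quartiles with the median as a line, and whiskers reach the lowest and highest value; the KRTAP median of 903 bp lies below that of every other set shown.

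Other families of clustered genes with narrow expression were set beside them. Olfactory receptor genes had 92.9% of 392 RefSeq coding genes on the low list, late cornified envelope genes 89.5% of 19 and beta defensin genes 84.6% of 39, each with 0 on the high list. The KRTAP share of 94.7% was of the same order, and no difference between the families was tested. The olfactory receptor rows were spread over 18 chromosomes, against 3 for KRTAP, 5 for beta defensin and 1 for late cornified envelope genes.

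Codon content was described by class. The choice of genes did not use it, but the classes are defined by composition, so differences between them in cysteine, glycine and tyrosine codons restate that definition. Coding sequences were found in GENCODE for all 89 listed genes, and 87 were transcripts of a single exon, with KRTAP2-2 and KRTAP5-11 the exceptions. Single-exon transcripts were 6.61% of 19445 coding genes, 16.6% of other coding genes on the low list and 92.0% of listed olfactory receptors. The listed KRTAP genes had a median of 163 codons (range 44 to 517), against 435 over all coding genes.

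Cysteine codons (TGC and TGT) made up a median of 25.4% of codons in listed KRTAP genes, against 2.05% over all coding genes and 2.49% in other low-list genes. The ultra-high sulfur class ranged from 30.6% to 37.1% with a median of 34.7%. All 30 of its listed genes exceeded 30%, a level exceeded by 44 of all 19445 coding genes. Of the unlisted genes of this class, KRTAP5-9 had 35.5% and KRTAP4-16 had 22.6%, below every listed one. The high sulfur class had a median of 24.1% and was uneven, from 6.86% in KRTAP25-1 to 27.7% in KRTAP10-4. Its chromosome 21 subfamilies KRTAP13, 15 and 23 to 27 lay at or below 12.8%. Of the 50 coding genes with the largest share of cysteine codons, 34 were listed KRTAP genes. Late cornified envelope genes, which encode cross-linked proteins of the skin surface, came closest among the comparison families, with a median of 19.3%.

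Glycine and tyrosine codons together made up a median of 54.0% in the listed high glycine-tyrosine genes, against 9.26% over all coding genes. At least 40% was found in 17 of these 21 genes and in 20 coding genes in all. KRTAP20-1 had the highest share, 67.9%. The exceptions among the listed genes of this class were KRTAP20-4 at 25%, KRTAP21-3 at 29.3%, KRTAP22-2 at 33.3% and KRTAP22-1 at 37.5%. The unlisted KRTAP7-1, at 34.5%, fell in the same range. Among listed ultra-high sulfur genes these codons had a median of 25.1% in KRTAP5 and made up 29.5% in KRTAP17-1, against medians of 3.23% in KRTAP4 and 4.57% in KRTAP9.

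**Figure D4:**
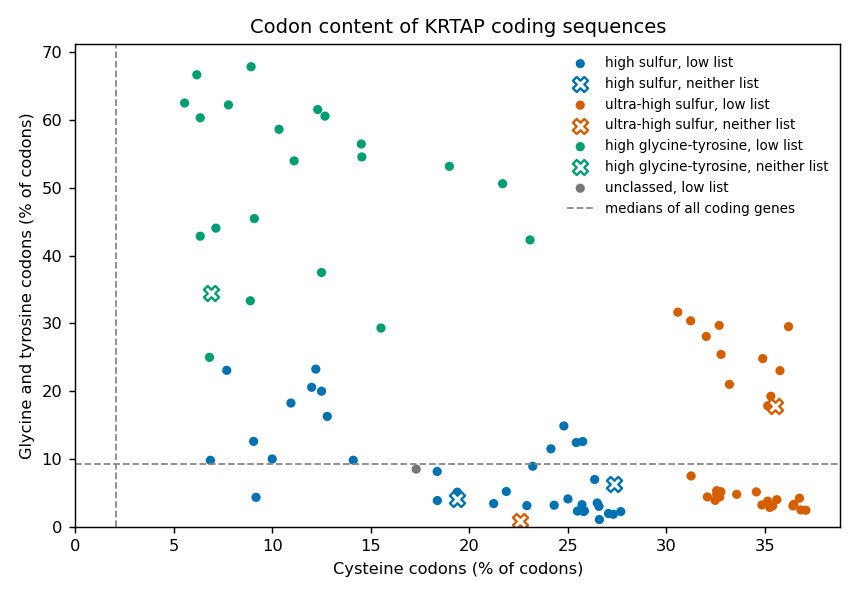
Share of cysteine codons (horizontal axis, % of codons) against the share of glycine and tyrosine codons (vertical axis, % of codons) in KRTAP coding sequences; dots are genes on the low list, open crosses the 5 genes on neither list, and dashed lines the medians of 19445 coding genes. All ultra-high sulfur genes on the low list lie above 30% cysteine codons, and the high glycine-tyrosine genes lie above 25% or at it on the vertical axis.

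The repeats behind these shares are shown by the gene with the highest share in each class. For each, the 30 successive codons richest in the marked kind are given from GENCODE transcripts (GRCh38, coding exon, 5′ to 3′ on the gene's strand). Capitals mark cysteine codons in the first pair and glycine or tyrosine codons in the last.
KRTAP4-6, ultra-high sulfur, codons 139 to 168, chr17:41139984-41140073, minus strand: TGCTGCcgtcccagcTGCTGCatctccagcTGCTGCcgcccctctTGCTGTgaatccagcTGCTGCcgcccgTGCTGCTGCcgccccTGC
KRTAP10-4, high sulfur, codons 107 to 136, chr21:44574077-44574166, plus strand: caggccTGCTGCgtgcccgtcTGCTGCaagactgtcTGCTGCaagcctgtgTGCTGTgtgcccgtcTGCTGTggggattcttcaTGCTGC
KRTAP20-1, high glycine-tyrosine, codons 7 to 36, chr21:30616473-30616562, plus strand: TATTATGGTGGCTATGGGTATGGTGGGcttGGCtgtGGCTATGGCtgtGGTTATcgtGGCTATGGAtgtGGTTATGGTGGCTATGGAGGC
In KRTAP4-6 and KRTAP10-4 the cysteine codons came mostly in pairs, 14 and 12 of the 30 codons. In KRTAP20-1, 25 of 30 codons were for glycine or tyrosine.

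How far a short fragment could be assigned to 1 KRTAP gene varied widely. Stretches of 50 bases from each gene's GENCODE transcript were looked up in the transcripts of all other genes, on both strands. The median share found elsewhere was 9.93% for the listed genes. It was 0% for 35 of them, including 20 of the 21 high glycine-tyrosine genes, and at least 50% for 7. The 7 were KRTAP5-2, KRTAP2-1, KRTAP2-2, KRTAP2-4, KRTAP9-2, KRTAP9-8 and KRTAP10-6, chosen here by their values.

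KRTAP5-2 had the highest share, 93.6%, all of it with the antisense RNA gene KRTAP5-AS1. KRTAP2-2 followed at 83.9%, all of it with KRTAP2-1, then KRTAP9-2 at 82.1% and KRTAP9-8 at 78.5%, which share mostly with each other. The GENCODE transcript of KRTAP2-2 has 390 bases for 129 codons, where the listed row has 733 bp. Its share therefore leaves out bases beyond the coding sequence. KRTAP2-4 shared 52.6% and the unlisted KRTAP2-3 39.7%. No source used here says how fragments with several matches were handled or whether strand was used. The part of shared stretches in the listing of these genes was not tested. Closest relatives at 90% coding identity or more were found for 23 of the 78 listed genes that have a relative in their subfamily.

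The promoter windows of the listed genes were rich in the letters of a TATA box and poor in CpG. RefSeq windows (GRCh38.p14) of 250 bases before to 50 after the annotated start were found for 75 of 89 listed genes. The 14 without one were KRTAP9-8, KRTAP10-4, KRTAP19-2, KRTAP19-4, KRTAP21-1 and all listed KRTAP5 genes but KRTAP5-3. The word TATAAA was found on either strand in 61 of the 75 (81.3%), against 11.5% of 35116 windows of all genes, 17.5% of windows of other low-list genes and 5.82% of those of high-list genes. It lay on the sense strand wholly within the 45 to 16 bases before the start in 33 of 75 (44.0%), against 2.38% of all windows. This narrower zone was chosen after the data were seen.

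The TATA word in that zone was unevenly spread over subfamilies. All 4 KRTAP12 windows and 8 of 11 KRTAP4 windows had it, as did 3 of 4 KRTAP1 windows, but 1 of 7 KRTAP9 and 3 of 11 KRTAP10 windows. All 7 KRTAP9 windows held the word somewhere. RefSeq gives KRTAP9-1, KRTAP9-6 and KRTAP9-7 lengths of 753, 483 and 510 bp. Their coding sequences of 250, 160 and 169 codons with a stop codon fill these lengths, so the annotated start is the start codon. The word began at positions -86, -83 and -83 from it. KRTAP9-2, KRTAP9-4 and KRTAP9-9, also without the word in the zone, have longer RefSeq lengths than their coding sequences. The part of start annotation in this spread was not tested. The comparison families had it in the zone in 1.97% of olfactory receptor, 29.4% of late cornified envelope and 15.8% of beta defensin windows.

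Windows with at most 5 CpG were 67 of 75 (89.3%), against 33.7% of all windows and 8.19% of those of high-list genes. The share was 49.6% for windows of other low-list genes. The comparison families were alike in this, with 95.7% of olfactory receptor, 94.1% of late cornified envelope and 89.5% of beta defensin windows. The median GC content was 42.7% in listed KRTAP genes and 58.7% in all windows. The 8 windows above 5 CpG belonged to KRTAP10-2, KRTAP10-5, KRTAP10-6, KRTAP10-7, KRTAP10-10, KRTAP12-3, KRTAP17-1 and KRTAP29-1, with KRTAP10-6 highest at 13.

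Words read by hair regulators were also counted. CTTTGAA or CTTTGTT, core words of LEF1 and TCF factors, the nuclear partners of Wnt signalling, were in 21 of 75 windows (28.0%) on either strand, against 9.22% of all. The shares were 11.1% for other low-list genes, 15.8% for olfactory receptor, 15.8% for beta defensin and 5.88% for late cornified envelope windows. TAATTA, a homeodomain core word, was in 15 of 75 (20%), against 4.84% of all and 22% of olfactory receptor windows. Words rich in A and T are more frequent where GC content is low, and the part of base composition in these shares was not tested. A match shows letters, not a bound site.

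**Figure D5:**
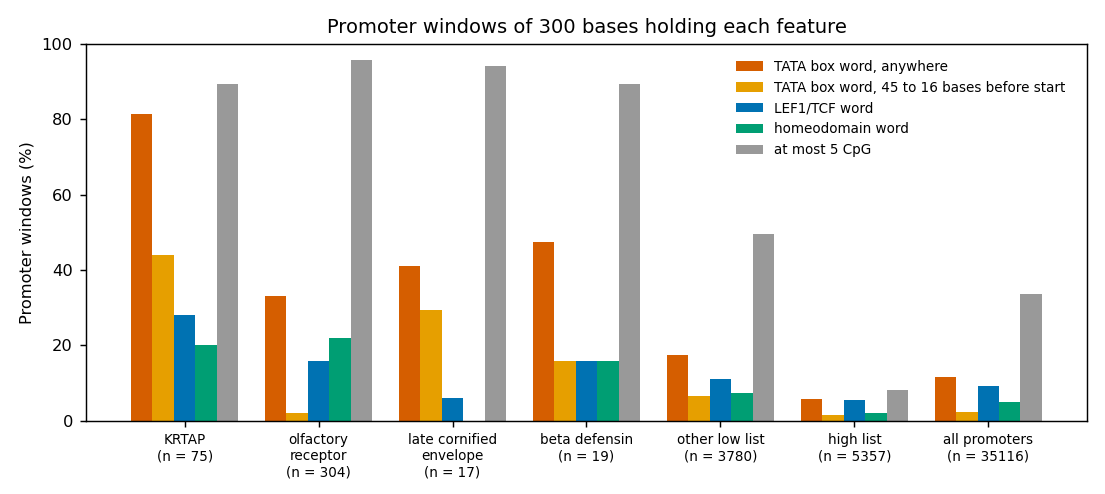
Share of promoter windows of 300 bases (vertical axis, %) that hold each word or at most 5 CpG, for listed KRTAP genes, listed genes of 3 families, other low-list genes, high-list genes and all RefSeq windows. The KRTAP bars for the TATA box word stand at 81.3% anywhere and 44.0% close before the start, above each other set shown.

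The 250 bases before the start are given for 4 genes (RefSeq, GRCh38.p14, 5′ to 3′ on the gene's strand), with every searched word in capitals. KRTAP4-11 and KRTAP4-8 have the most alike upstream sequences of 1 subfamily, at 92.5% identity. KRTAP22-1 and KRTAP10-10 have the lowest and highest GC content among the other subfamilies' genes with TATAAA in the zone.
KRTAP4-11, chr17:41118374-41118623, minus strand: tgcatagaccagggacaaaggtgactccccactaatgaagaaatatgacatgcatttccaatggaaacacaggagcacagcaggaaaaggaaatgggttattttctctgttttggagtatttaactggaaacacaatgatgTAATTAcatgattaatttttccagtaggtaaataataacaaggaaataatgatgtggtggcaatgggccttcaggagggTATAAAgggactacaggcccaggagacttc
KRTAP4-8, chr17:41098143-41098392, minus strand: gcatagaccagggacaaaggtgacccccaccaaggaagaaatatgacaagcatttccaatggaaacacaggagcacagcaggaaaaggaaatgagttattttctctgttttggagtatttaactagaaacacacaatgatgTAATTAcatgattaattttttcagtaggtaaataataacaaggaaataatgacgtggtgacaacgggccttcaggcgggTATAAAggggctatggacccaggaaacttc
KRTAP22-1, chr21:30600837-30601086, plus strand: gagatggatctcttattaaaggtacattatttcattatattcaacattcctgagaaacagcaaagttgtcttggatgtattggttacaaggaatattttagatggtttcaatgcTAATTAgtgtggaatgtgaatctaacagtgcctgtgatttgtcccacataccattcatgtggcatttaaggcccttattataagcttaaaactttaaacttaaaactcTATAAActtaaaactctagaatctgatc
KRTAP10-10, chr21:44637106-44637355, plus strand: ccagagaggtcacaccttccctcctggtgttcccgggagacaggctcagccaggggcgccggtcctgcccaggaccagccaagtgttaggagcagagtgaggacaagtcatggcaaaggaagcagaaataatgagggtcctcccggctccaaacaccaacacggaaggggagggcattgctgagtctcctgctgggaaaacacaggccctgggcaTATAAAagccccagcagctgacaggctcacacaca
TATAAA begins 30 bases before the start in KRTAP4-11 and in KRTAP4-8, 28 bases before it in KRTAP22-1 and 35 bases before it in KRTAP10-10. The first 3 also hold TAATTA farther upstream, and KRTAP10-10 does not.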

How the data were processed

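RNA of 6 SiHa libraries, 3 migrated and 3 non-migrated, was made with a TruSeq RNA kit, per the labels' protocols. Build hg19 and the tools Cuffdiff, Cufflinks 2.2.1, TopHat2 and CASAVA 1.8.2 are listed, without settings, per the submitters' processing notes. Per the file headers, the deposited lists give symbols, positions and strand, and their value column is empty. Per the file headers, the deposited Cuffdiff table holds estimated counts (fragments assigned before scaling) and FPKM of unnamed loci. The estimated counts gave the depth and the loci at 0, and FPKM an alternative. No test was run, since no named gene has a sample value, and no interval applies to a complete list. The table's replicate index, which starts at 0, was read as the labels' replicate numbers in order.

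Members, gene lists and families were chosen with earlier results of these data known. Every listed KRTAP gene is named, and printed sequences follow the rules given beside them. The listed and unlisted pair of KRTAP2 genes was added after values were seen. Names came from RefSeq (GRCh38.p14), coding sequences from GENCODE release 29 (longest complete coding sequence per gene) and promoters from RefSeq. Builds were not mixed: hg19 positions are the lists' own. Codon shares replaced the planned protein shares, as no protein table was used here. Identity is the share of equal columns in a global alignment (Biopython 1.88; match 1, mismatch -1, gap opening -2, extension -0.5). The assignment to clusters and the search for TATAAA in the zone were tested on simulated data, and the other routines were not. The simulated windows held only C and G outside the planted word, so false finds could not arise. The simulated clusters lay far more than 1 Mb apart or on different chromosomes. These tests show only that plain planted cases were found. Python 3.11.15 and pandas 2.3.3 were used. Alternatives are given in the closing section.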

Additional observations from a re-analysis of the deposited data

How the results depend on the processing

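The count of 89 low-list and 0 high-list KRTAP genes was the same with older symbols or with repeated symbols counted once. With pseudogenes included, 79.5% of KRTAP genes were on the low list instead of 94.7%, as no pseudogene was listed. A gap of 100 kb gave 6 clusters, with KRTAP19-8 alone, and a gap of 5 Mb gave 5. Widening the spans by 100 kb raised the other listed genes from 2 to 14. On the sense strand alone the LEF1/TCF words were in 16% of KRTAP windows instead of 28.0%, against 4.72% of all windows on that strand. TATAAA was in 81.3% of KRTAP windows on either strand and in 78.7% on the sense strand, against 7.33% of all windows on the sense strand. Limited to 45 to 16 bases before the start, it was in 44.0% on either strand and in 44.0% on the sense strand, alternatives chosen after the data were seen. So was the length of shared stretches: at 100 bases the median share was 0% instead of 9.93%. TAATTA is its own reverse complement, so the strand cannot change its share of 20%. The median share of cysteine codons was 27.6% in genes of at least 100 codons without their first codon, instead of 25.4%, and 360 olfactory receptor rows were left of 367 without symbols ending in P. Loci at 0 in all libraries numbered 7820, 11087 with FPKM under 0.1 instead, and 7938 to 8148 when 1 library was left out. No paired analysis was possible because the results on KRTAP genes come from no test and the lists hold no sample values. A locus at 0 fragments is limited by depth and is not shown to be silent.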

Other observations

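Some listed KRTAP rows span more than the gene that RefSeq gives. In 69 of 89 the listed length was within 10% of the RefSeq length, and in 11 it was over 1.5 times as long. Among the 11, KRTAP4-1 (1241 bp), KRTAP9-6 (1303 bp) and KRTAP9-7 (1039 bp) had the same length as their GENCODE transcripts. The ratio was 27.3 for KRTAP12-3 (11202 against 410 bp), 20.3 for KRTAP4-9 (22282 against 1100 bp) and 12.4 for KRTAP4-2 (9622 against 776 bp). Such spans produced 7 overlapping pairs of listed rows. KRTAP4-9 starts at the same position as KRTAP4-7 and covers the whole of KRTAP4-8 on the other strand. KRTAP4-2 covers KRTAP4-1, KRTAP9-9 overlaps KRTAP9-4 by 932 bp, and KRTAP12-3 overlaps KRTAP10-11 by 508 bp and covers KRTAP12-4. KRTAP6-1 covers KRTAP20-1 on the other strand. How these spans arose was not tested.

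Among the unnamed loci of the expression table, 880 were at 0 in all 3 migrated libraries and above 0 in at least 1 non-migrated library, and 496 showed the reverse. Above 0 in every library of the other fraction were 56 and 10 of these. Without the deepest library, non-migrated replicate 1 with 33466924 fragments, the order of the first pair of counts was reversed, at 552 and 823. Without non-migrated replicate 2 they were 715 and 659, and without replicate 3 they were 736 and 628. Leaving out 1 migrated library gave 1109 to 1171 and 350 to 378. Such an omission leaves the fractions with unequal numbers of libraries, which by itself moves both counts. Omissions of a non-migrated library all leave the same group sizes, while the libraries left out differ in depth. The part of depth in these counts was not tested. The second pair was 93 and 59 without non-migrated replicate 1. These alternatives were chosen after the data were seen. Whether any KRTAP gene is among these loci cannot be read from the files.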
